A study of Saccharomyces cerevisiae with 32 samples.

Results

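This account follows 10 genes of glycogen metabolism in budding yeast through a short heat shock, at the level of their RNA and of 5 transcription factors at their promoters. The genes were listed by function, with earlier results of these data known. They are 5 synthesis genes (GSY1, GSY2, GLG1, GLG2 and GLC3), 2 breakdown genes (GPH1 and GDB1) and 3 genes for subunits that direct protein phosphatase 1 to glycogen enzymes (GAC1, PIG1 and GIP2). All 10 had an RNA probe among the 7056 of the gene arrays. The intergenic regions that border their 5′ ends numbered 11 of 7047, because GAC1 had 2, and 10 of the 11 could be tested.

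Heat shocked cells had been grown at 25 °C in YPD to an OD600 near 0.8 and held for 15 min at 37 °C after an equal volume of heated medium was added. Mock treated cells received medium at 25 °C for the same 15 min. For chromatin immunoprecipitation (ChIP), cells returned to 25 °C while being fixed with 1% formaldehyde for 2 h. Both conditions of 1 strain were hybridised together on 2-colour arrays, with 4 arrays for each of the strains carrying HA-TBP, HA-TAF1, HA-Spt3, HA-Mot1 or HA-Bdf1 and 4 for a strain labelled Null, whose label names no tag. Another 4 arrays compared input DNA of the TAF1 and Spt3 strains. RNA came from the strain labelled Null (BY4741) alone, on 2 arrays of heat shocked against mock treated cells and 2 of mock against mock, so RNA and tagged factors were measured in different strains.

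Glycogen is a branched glucose store that yeast builds up late in growth and under stress. Glycogenin (Glg1 and Glg2) primes the chain by glucosylating itself, glycogen synthase (Gsy1 and Gsy2, of which Gsy2 is the main form) extends it, and the branching enzyme Glc3 adds the side chains. Glycogen phosphorylase (Gph1) releases glucose 1-phosphate from the chain ends, and the debranching enzyme Gdb1 removes the branches that phosphorylase cannot pass. Phosphorylation turns glycogen synthase down and phosphorylase up, and the phosphatase Glc7, held on glycogen by subunits such as Gac1, reverses this.

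TBP binds core promoters. It arrives there with TFIID, of which TAF1 is a subunit and with which the bromodomain protein Bdf1 associates, or through SAGA, of which Spt3 is a subunit. Mot1 is an ATPase that takes TBP off DNA.

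Values are given on the log2 scale as the ratio of heat shocked to mock treated cells after centring each array on its median, with the standard error of the limma fit. The channel effect was removed from the ChIP values of single arrays but not from the RNA values of single arrays. A value was called when its Benjamini-Hochberg adjusted p, taken over all probes or regions tested, was under 0.05. The labels do not say that replicate arrays came from separate cultures, so p-values measure only the spread between these arrays. Values were present for 6644 to 6953 regions per ChIP array and 6865 to 6944 probes per RNA array. Array medians as deposited ran from -1.76 to 1.77 on the ChIP arrays. Null arrays A and B were the noisiest, with a residual spread of 0.36 and 0.31 against 0.12 to 0.28 on the other heat shock arrays. The labels do not give the numerator channel. RNA was read so that heat shock chaperones were higher (15 of 15), and ChIP so that TBP at chaperone promoters ran with RNA (above 0 at 14 of 16 regions). Under the other reading of the ChIP arrays every ChIP sign below reverses, while sizes and p-values stay.

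Most of the 10 listed genes, which were chosen with earlier results of these data known, had more RNA after heat shock. Of the 10 genes 9 rose and 0 fell, where 18.2% of all 6772 probes were called higher and 37.2% were called in either direction. The median over the 10 genes was 1.24, against 0.01 over all probes. The breakdown genes showed the largest changes, and GAC1 was the gene not called. The count was 5 without heat array A and 5 without heat array B, since the 4 smallest rises (GSY1, GLG1, GLG2 and PIG1) were then not called.

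Among the synthesis genes GSY2 stood highest. Its RNA ratio was 2.52 and 3.46 on the heat shock arrays A and B, against -0.02 and 0.63 on the mock against mock arrays. The fitted change was 2.99 ± 0.20, a 7.96-fold rise (limma adjusted p = 0.000115). GLC3, for the branching enzyme, had 1.11 and 1.99 on the heat shock arrays, against 0.08 and 0.43 on the mock arrays. It rose by 1.55 ± 0.17, or 2.93-fold (limma adjusted p = 0.000649). For both genes heat array B gave the higher value. Heat shocked RNA was in channel 2 on that array and in channel 1 on array A, so these 2 arrays alone cannot tell array and channel apart. The mock arrays also entered the fitted channel effect.

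GSY1, the minor glycogen synthase gene, had 0.74 and 0.86 on the heat shock arrays, against -0.21 and 0.12 on the mock arrays. Its rise of 0.80 ± 0.16 was called (limma adjusted p = 0.0091) and was not called without heat array A (0.91, limma adjusted p = 0.0731) or B (0.70, limma adjusted p = 0.134). The glycogenin genes moved least of the 5. GLG1 had 0.48 and 0.94 on the heat shock arrays, against -0.07 and 0.62 on the mock arrays, so the groups overlapped with the channel effect left in. Its change was 0.71 ± 0.20 (limma adjusted p = 0.0308), and without heat array A or B the adjusted p was 0.253 and 0.197. GLG2 had 0.49 and 0.64 on the heat shock arrays, against 0.13 and 0.20 on the mock arrays. Its change was 0.56 ± 0.15 (limma adjusted p = 0.0256), and the adjusted p was 0.216 without heat array A, 0.119 without heat array B and 0.107 without mock array A. The change of GSY2 was thus larger than that of its paralog GSY1 on both heat shock arrays. The ranges of the 2 glycogenin genes overlapped with the channel effect left in.

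Both breakdown genes were among the 12 largest rises of all 6772 probes. GPH1 had 4.95 and 5.92 on the heat shock arrays, against 0.05 and 0.54 on the mock arrays, and ranked 6. Its rise of 5.43 ± 0.18 is 43.2-fold (limma adjusted p = 2.37e-05). GDB1 had 4.60 and 4.48 on the heat shock arrays, against 0.37 and -0.12 on the mock arrays, and ranked 12. It rose by 4.54 ± 0.18, or 23.2-fold (limma adjusted p = 3.25e-05). The mock arrays lay near 0 for both.

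The phosphatase subunit genes differed from one another. GIP2, whose product binds Glc7 and resembles Gac1, had 2.34 and 1.93 on the heat shock arrays, against -0.01 and 0.39 on the mock arrays. It rose by 2.13 ± 0.20, or 4.39-fold (limma adjusted p = 0.000345). PIG1, a Gac1 relative that binds Gsy2, had 0.72 and 1.14 on the heat shock arrays, against 0.16 and 0.41 on the mock arrays. Its rise of 0.93 ± 0.16 was called (limma adjusted p = 0.00417), but not without heat array A (limma adjusted p = 0.076) or B (limma adjusted p = 0.0546). GAC1, which targets Glc7 to glycogen synthase, had -0.16 and 0.32 on the heat shock arrays, against -0.05 and 0.27 on the mock arrays. These groups overlapped, and the change was 0.08 ± 0.16 with a 95% interval of -0.31 to 0.48 (limma adjusted p = 0.718).

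Set side by side, the median RNA change was 4.99 for the 2 breakdown genes, 0.80 for the 5 synthesis genes and 0.93 for the 3 phosphatase subunit genes. The breakdown median exceeded the synthesis median by 4.18. The 2 groups of genes did not overlap, since the lowest breakdown gene was GDB1 at 4.54 and the highest synthesis gene was GSY2 at 2.99. These medians are descriptions of a chosen list and were not tested. With arrays scaled to equal spread, which shrinks the heat shock arrays, the gap was 2.65.

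**Figure D1:**
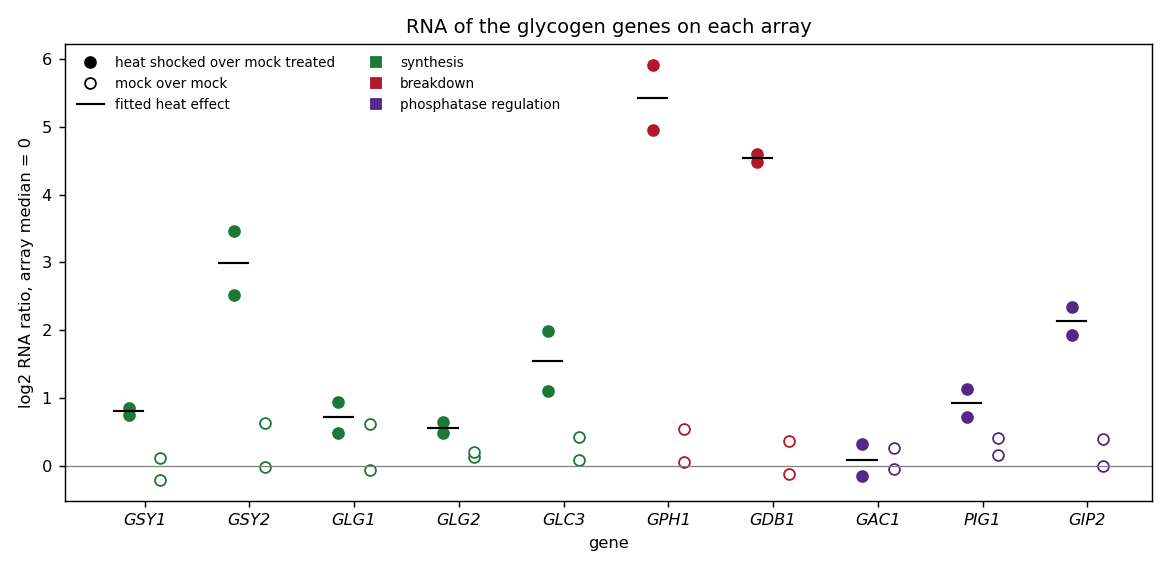
RNA ratios of the 10 genes on each of the 4 RNA arrays (y axis, log2, array median at 0), with heat shocked over mock treated as filled points, mock over mock as open points and the fitted heat effect as a line. The channel effect was not removed from the points. GPH1 and GDB1 lie above 4.4 on both heat shock arrays, GSY2 and GIP2 lie between 1.93 and 3.46, and the GAC1 points of both groups overlap.

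The steps around the pathway were measured as well. Of 21 further genes with a probe (precursor supply, other breakdown, phosphatase and kinases), 8 rose and 1 fell, with a median of 0.31 (18.2% of all probes were called higher). Without heat array A 5 rose, since IGD1, GLC8 and BCY1 (named after their values were seen) were then not called (limma adjusted p = 0.0541, 0.584 and 0.0609), and with arrays scaled to equal spread 4 rose. PGM2, the main phosphoglucomutase gene, rose most, with 4.36 and 5.19 on the heat shock arrays, against 0.003 and 0.59 on the mock arrays. Its change was 4.78 ± 0.19, or 27.4-fold (limma adjusted p = 3.25e-05). UGP1, for the enzyme that makes UDP-glucose, rose by 2.78 ± 0.15 (limma adjusted p = 7.08e-05), whereas PGM1, the minor phosphoglucomutase gene, was at -0.40 ± 0.16 (limma adjusted p = 0.0899). The fall was of TPK3, a catalytic subunit gene of protein kinase A, at -0.60 ± 0.16 (limma adjusted p = 0.0274), and it was not called without heat array A (limma adjusted p = 0.0686), heat array B (0.327) or mock array A (0.0797). Of the 4 phosphatase genes 1 rose and of the 12 kinase genes 3 rose, shares that are read against the same 18.2%.

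At the promoters the changes were smaller and differed by factor. Of the 10 tested regions TBP was higher at 3 and lower at 0, where 12.4% of all 6392 regions were called (8.35% higher). TAF1 was higher at 2 and lower at 1 (20.9% called over all regions, 12.2% higher and 8.67% lower). Mot1 was higher at 4 and lower at 0 (12.8% called, 8.57% higher). Bdf1 was higher at 2 and lower at 3 (16.2% called, 8.42% higher and 7.81% lower). With Spt3, limma called 0 regions, and 2 had an unadjusted p under 0.05 (5.65% called over all regions). In the Null strain it likewise called 0, and 3 had an unadjusted p under 0.05 (0.0313% called). With counts this small and backgrounds of this size, the TAF1 and Bdf1 counts are given without a reading. Arrays of a factor that share a sign were common. Over all regions, every array lay above 0 at 22.3% for TBP, 21.9% for TAF1 and 16.1% for Spt3. For Mot1 this share was 15.7% and for Bdf1 20.5%. Every array lay below 0 at 20.1% for TAF1, 23.3% for Bdf1 and 8.46% for Null.

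Single arrays mattered for these counts. The TBP count of 3 was 0 without TBP array A, and 1 without array B or D. Over all 6392 regions TBP calls were 790 in the main fit, 408 without array A and 426 without array B. For Mot1 the count of 4 was 2 without Mot1 array C or D. Mot1 calls over all regions were 815 in the main fit, 474 without array C and 452 without array D. For Bdf1 the count of 5 was 3 without Bdf1 array A, and 2 without array C or D. Bdf1 calls over all regions were 1037 in the main fit, and 716, 429 and 661 without arrays A, C and D. The Null count of 0 was 2 without Null array C and 1 without array D. Null calls over all 6392 regions were 2 in the main fit, 676 without array C and 352 without array D. Heat shocked DNA was in channel 1 on 3 Mot1 arrays and on 1 Bdf1 array, and on 2 of 4 arrays for each of the other factors and Null.

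The placing of regions mattered as well. For GSY2, GLG1, GLC3, GPH1 and GDB1 the region used here is named by the neighbouring gene, and the region named by the gene itself, which borders its 3′ end in this placing, gave other values. At GLC3 that region had no called gain, with TAF1 at 0.01 and Mot1 at -0.03, and Bdf1 was lower (-0.46, limma adjusted p = 0.0414). At GSY2 Bdf1 was lower there too (-0.96, limma adjusted p = 0.000763), while TBP and Mot1 were at -0.20 and 0.13. At GDB1 TBP and TAF1 were higher (0.47 and 0.35, limma adjusted p = 0.011 and 0.0403), with Bdf1 at 0.36 (limma adjusted p = 0.0506) and Mot1 at -0.01. At GPH1 TBP, TAF1, Mot1 and Bdf1 were lower there (-0.28, -0.26, -0.26 and -0.54, limma adjusted p = 0.0275, 0.0285, 0.0463 and 0.00021). The region named by GLG1 could be tested and had Bdf1 lower (-0.65, limma adjusted p = 0.0297).

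**Figure D2:**
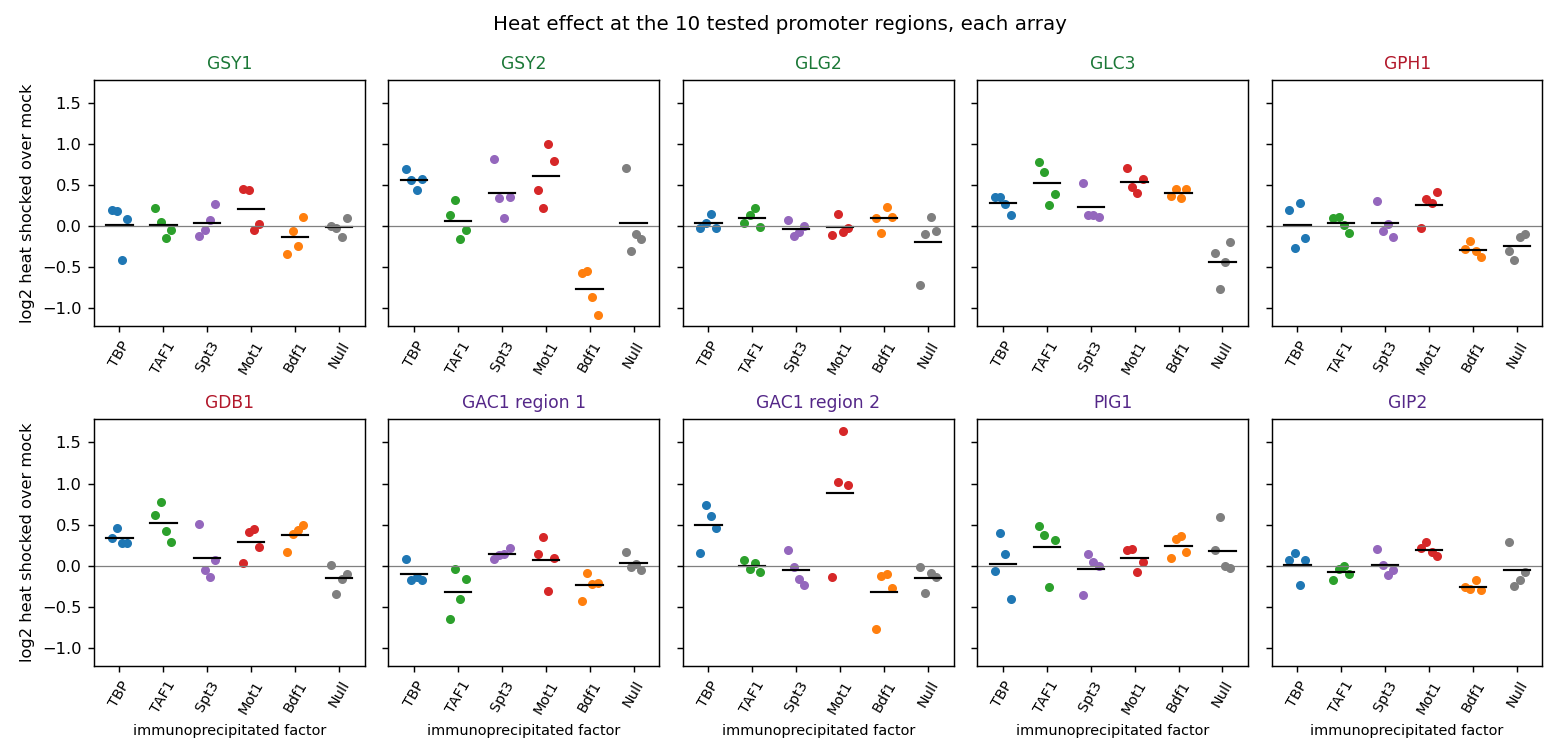
Heat effect at each of the 10 tested promoter regions (y axis, log2 of heat shocked over mock treated after removal of the channel effect), with 4 arrays as points and their mean as a line for TBP, TAF1, Spt3, Mot1, Bdf1 and, at the right, Null. Titles are coloured by role as in the RNA plot; at GSY2 all 4 Bdf1 arrays lie below -0.5 while all TBP and Mot1 arrays lie above 0, and at GLC3 every array of the 5 factors lies above every Null array.

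GSY2 carried the largest Bdf1 change of the 10 regions, and TBP and Mot1 changed there in the opposite direction. Bdf1 was at -0.57, -0.55, -0.87 and -1.08 on arrays A to D, and TBP at 0.70, 0.56, 0.44 and 0.58. The arrays of each factor shared a sign. Over all regions, every Bdf1 array lay below 0 at 23.3% and every TBP array above 0 at 22.3%. Bdf1 fell by 0.77 ± 0.14 on the log2 scale (limma adjusted p = 0.000889), the 73rd lowest value of 6392, and TBP rose by 0.57 ± 0.14 (limma adjusted p = 0.00792). Without TBP array A the TBP call was lost (0.52, limma adjusted p = 0.0613).

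Mot1 at GSY2 was at 0.44, 0.22, 1.00 and 0.79 on arrays A to D, with all 4 above 0. Its rise of 0.61 ± 0.14 was called (limma adjusted p = 0.00517), but not without Mot1 array C (0.49, limma adjusted p = 0.0592) or D (0.54, limma adjusted p = 0.0609). Spt3 was above 0 on all 4 arrays, from 0.10 to 0.82, and its 0.40 ± 0.14 was not called (limma adjusted p = 0.0887). It was called with array weights (0.35, limma adjusted p = 0.00477) and without Null arrays A and B (limma adjusted p = 0.0284). Over all regions Spt3 calls were 361 in the main fit, 1003 with array weights and 612 without these Null arrays. TAF1 lay on both sides of 0, at 0.07 ± 0.14 (limma adjusted p = 0.793). The Null arrays were at 0.70, -0.30, -0.09 and -0.15, so Null array A reached the level of the highest TBP array while the other three lay below 0.

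At GLC3, TBP, TAF1, Mot1 and Bdf1 were higher, so that 4 of the 5 factors were called higher and 0 lower, the same count as at GDB1. TBP was at 0.35, 0.35, 0.28 and 0.13 on arrays A to D, TAF1 at 0.78, 0.66, 0.26 and 0.39, Mot1 at 0.71, 0.48, 0.40 and 0.58, and Bdf1 at 0.37, 0.46, 0.35 and 0.46. All 16 of these arrays were above 0, and all 4 Null arrays were below it, at -0.32, -0.76, -0.43 and -0.20. For a single factor of these 4, every array lay above 0 at 15.7% to 22.3% of all regions. Every Null array lay below 0 at 8.46%. TAF1 rose by 0.52 ± 0.09 (limma adjusted p = 0.000276), Mot1 by 0.54 ± 0.09 (limma adjusted p = 0.000301) and Bdf1 by 0.41 ± 0.09 (limma adjusted p = 0.00381). These 3 calls held with any single array of the same factor left out.

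The TBP change at GLC3, 0.28 ± 0.09, was close to the threshold (limma adjusted p = 0.0422) and was not called with any TBP array left out (limma adjusted p = 0.058 to 0.184). Spt3 was at 0.53, 0.14, 0.14 and 0.11 on arrays B to E, and its mean of 0.23 ± 0.09 was not called (limma adjusted p = 0.137). The Null mean was -0.43 ± 0.09, also not called (limma adjusted p = 0.0861). It was called without Null array C (-0.43, limma adjusted p = 0.0206) or D (-0.51, limma adjusted p = 0.0122). In these fits Null was called at 676 and 352 of all 6392 regions.

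The other synthesis promoters gave no call. At GSY1 the 5 factor means ran from -0.13 (Bdf1) to 0.22 (Mot1), and at GLG2, which lies between GLG2 and the ribosomal protein gene RPS21B, from -0.03 (Spt3) to 0.10 (Bdf1). The GLG1 region, between RPS21A and GLG1, was not tested, because it had 24 of 28 values and only 2 of the Null strain. Those 24 values, centred but not turned to 1 direction, ran from -5.45 to 2.00, with an SD of 1.93 against a median of 0.30, and 99.5% of the tested regions had a smaller SD. Of the 4 tested synthesis regions, therefore, GSY2 and GLC3 held all the calls, and they belong to the 2 synthesis genes with the largest RNA rises.

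The 2 breakdown promoters differed, although both genes had very large RNA rises. At GDB1, TBP was at 0.33, 0.46, 0.27 and 0.28 on arrays A to D and TAF1 at 0.62, 0.78, 0.42 and 0.29, all above 0. Bdf1 was at 0.17, 0.39, 0.44 and 0.50. The Null arrays were at 0.02, -0.35, -0.16 and -0.10, and lay below all 12 of these arrays. Over all regions, Null lay wholly below TBP at 9.39%, below TAF1 at 8.73% and below Bdf1 at 8.34%. TAF1 rose by 0.53 ± 0.09 (limma adjusted p = 0.000363), which held with any single TAF1 array left out.

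The remaining GDB1 calls were less stable. TBP rose by 0.34 ± 0.09 (limma adjusted p = 0.0179), and was not called without TBP array A, B or D (limma adjusted p = 0.0708, 0.114 and 0.0523). Bdf1 rose by 0.37 ± 0.09 (limma adjusted p = 0.00908), and was not called without Bdf1 array C or D (limma adjusted p = 0.0743 and 0.0534). Mot1, at 0.04 to 0.45 over 4 arrays, was at the threshold with 0.28 ± 0.09 (limma adjusted p = 0.0489), and was not called without Mot1 array B, C or D (limma adjusted p = 0.19, 0.226 and 0.122). Spt3 had 0.51, -0.05, -0.14 and 0.07 on arrays B to E, so array B alone stood clearly above 0, and its mean was 0.10 ± 0.09 (limma adjusted p = 0.617).

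GPH1, with the largest RNA change of the 10 genes, had no called gain of any factor. Its region lies between a tRNA gene and GPH1. TBP was at 0.19, -0.27, 0.29 and -0.15 on arrays A to D, with a mean of 0.02 ± 0.09 and a 95% interval of -0.16 to 0.20 (limma adjusted p = 0.938). The arrays with heat shocked DNA in channel 1 averaged 0.24 and those with it in channel 2 averaged -0.21, so the sign of TBP there went with the channel.

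TAF1 (0.04 ± 0.09) and Spt3 (0.04 ± 0.09) were also near 0 at GPH1. Mot1 was at -0.02, 0.33, 0.29 and 0.41, and its 0.25 ± 0.09 was not called (limma adjusted p = 0.0603). It was called without Mot1 array A (0.34, limma adjusted p = 0.0168) and with array weights (0.29, limma adjusted p = 0.0463). It was also called with a channel effect of its own for each group (0.31, limma adjusted p = 0.0386) and without Null arrays A and B (0.26, limma adjusted p = 0.044). Over all regions Mot1 calls were 815 in the main fit, and 955, 928, 472 and 1124 in these fits. Bdf1 was at -0.28, -0.18, -0.30 and -0.38, all below 0, and fell by 0.28 ± 0.09 (limma adjusted p = 0.0303). This call was lost without Bdf1 array A, C or D (limma adjusted p = 0.0757, 0.126 and 0.114). Null was also below 0 on its 4 arrays, from -0.41 to -0.10, and overlapped the Bdf1 arrays.

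Among the phosphatase subunit genes, the 2 regions between GAC1 and SYC1 behaved differently. Which of the 2 lies nearer to GAC1 was not known from the files. At region 2 Mot1 was at -0.14, 1.02, 1.65 and 0.99 on arrays A to D, so array A stood apart from the other three. The mean of 0.88 ± 0.17 was the largest Mot1 value of the 10 regions (limma adjusted p = 0.0011). It was called with any single Mot1 array left out. TBP was at 0.16, 0.74, 0.60 and 0.47, all above 0, and its 0.49 ± 0.17 narrowly missed the threshold (limma adjusted p = 0.0527). It was called with equal spread (0.44, limma adjusted p = 0.0315) and with array weights (0.48, limma adjusted p = 0.000248). It was also called among regions with a value on all arrays (limma adjusted p = 0.0482) and without Null arrays A and B (limma adjusted p = 0.0489). Over all 6392 regions TBP calls were 790 in the main fit, 914 with equal spread, 2636 with array weights and 1132 without these Null arrays. Among the 5961 regions with a value on all arrays they were 780.

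Region 1 had -0.64, -0.04, -0.40 and -0.16 for TAF1, all below 0. TAF1 fell by 0.31 ± 0.09 there (limma adjusted p = 0.0155), a call that was lost without TAF1 array A (-0.20, limma adjusted p = 0.203) or C (-0.28, limma adjusted p = 0.0727). Mot1 in that region was at 0.07 ± 0.09. GAC1 RNA was thus near 0 while Mot1 was higher at 1 of its 2 upstream regions.

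GIP2, whose RNA rose, had Bdf1 at -0.26, -0.28, -0.17 and -0.30, all below 0. Bdf1 fell by 0.25 ± 0.08 (limma adjusted p = 0.0287), and this was not called with any Bdf1 array left out (limma adjusted p = 0.0693 to 0.0956). Mot1 was above 0 on all 4 arrays, from 0.12 to 0.29, with 0.20 ± 0.08 (limma adjusted p = 0.102; called without Null arrays A and B, limma adjusted p = 0.0282), and TBP, TAF1 and Spt3 means ran from -0.08 to 0.01. PIG1 shares its region with the replication gene MCM5, which is transcribed the other way, so its values cannot be given to PIG1 alone. Its 5 factor means ran from -0.04 (Spt3) to 0.24 (Bdf1) with no call, and TAF1 was called there without TAF1 array C (0.40, limma adjusted p = 0.0282).

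Mot1 and Bdf1 were set against each other at the 10 regions, a comparison chosen after their values were seen. Mot1 exceeded Bdf1 at 4 regions and was below it at 0, where 9.89% of all regions were called (6.34% higher). The largest difference was at GSY2, 1.38 ± 0.20 (limma adjusted p = 0.000126), rank 47 of 6392 from the top, with no overlap of the arrays. At GAC1 region 2 it was 1.19 ± 0.24 (limma adjusted p = 0.00285), where Mot1 array A overlapped the Bdf1 arrays. GPH1 differed by 0.54 ± 0.13 (limma adjusted p = 0.00897) and GIP2 by 0.45 ± 0.11 (limma adjusted p = 0.0129), both with no overlap. Over all regions, the Mot1 arrays lay wholly above the Bdf1 arrays at 9.97%. The GIP2 call was lost with arrays scaled to equal spread (0.36, limma adjusted p = 0.051). In the regions named by the genes themselves GSY2 was still called (1.09, limma adjusted p = 0.00721) and GPH1 was not (0.28, limma adjusted p = 0.161). Without Mot1 array C, GAC1 region 1 passed as well (0.43, limma adjusted p = 0.0321). At GLC3 and GDB1 both factors were above 0, and the differences were 0.14 ± 0.13 and -0.09 ± 0.14.

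The channel orders of Mot1 and Bdf1 were unequal in opposite ways, which bears on this comparison. At GSY2 the Mot1 mean was 0.55 with heat shocked DNA in channel 1 and 0.79 in channel 2, and the Bdf1 mean was -0.87 and -0.73, so each sign held in both orders. With a channel effect of its own for each group, a fit added after the data were seen, the differences were 1.47 at GSY2 (limma adjusted p = 0.00178), 0.60 at GPH1 (0.00869), 1.16 at GAC1 region 2 (0.034) and 0.39 at GIP2, where the call was lost (0.0935).

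**Figure D3:**
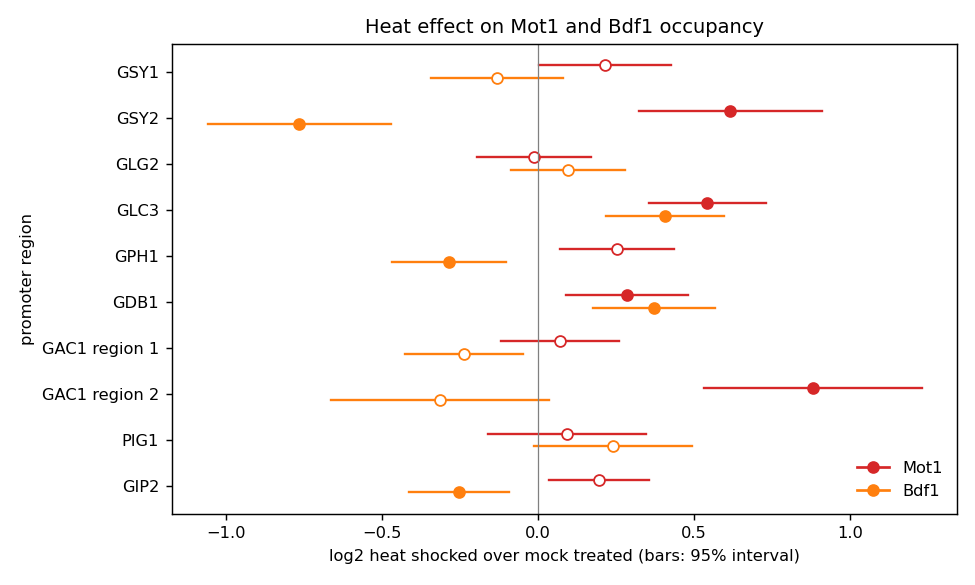
Heat effect on Mot1 (red) and Bdf1 (orange) at the 10 tested regions (x axis, log2 of heat shocked over mock treated), with 95% intervals and filled points for called values. The intervals of the 2 factors lie apart at GSY2, GPH1, GAC1 region 2 and GIP2, and both lie above 0 at GLC3 and GDB1.

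Against the Null strain, fewer values passed. TBP exceeded Null at 2 regions (6.96% called over all regions, 4.87% higher) and TAF1 at 2 (11.5% called, 7.42% higher). Spt3 did so at 1 region (0.954% called, 0.767% higher) and Mot1 at 3 (6.96% called, 5.02% higher). Bdf1 was above Null at 2 regions and below it at 1 (8.71% called, 4.74% higher and 3.97% lower). Of these 11 calls 5 were at GLC3 and 3 at GDB1.

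GLC3 differed from Null for each of the 5 factors, whose arrays all lay above the Null arrays, by 0.97 ± 0.13 with Mot1 (limma adjusted p = 7.78e-05), 0.95 ± 0.13 with TAF1 (0.000125), 0.84 ± 0.13 with Bdf1 (0.000499), 0.71 ± 0.13 with TBP (0.00161) and 0.66 ± 0.13 with Spt3 (0.00993). Over all regions, the arrays lay wholly above Null at 9.39% for TBP, 8.73% for TAF1 and 4.68% for Spt3. For Mot1 this share was 6.26% and for Bdf1 8.34%. About 0.43 of each difference at GLC3 is the Null strain's own value, which lay below 0. In the region named by GLC3 itself the 5 differences were below 0, from -0.96 for Bdf1 (called, limma adjusted p = 0.00709) to -0.45 for TBP (limma adjusted p = 0.194). At GDB1 the difference was 0.48 ± 0.13 for TBP (limma adjusted p = 0.0264), 0.67 ± 0.13 for TAF1 (0.00235) and 0.52 ± 0.13 for Bdf1 (0.0178). The TBP call at GDB1 was lost without Null array B (0.41, limma adjusted p = 0.0866), TBP array A (0.0646) or B (0.0895), and the Bdf1 call without Null array B (0.44, limma adjusted p = 0.0655), Bdf1 array C (0.0661) or D (0.0502).

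GSY2 differed from Null for Bdf1, by -0.80 ± 0.20 (limma adjusted p = 0.0147), lost without Bdf1 array C (-0.76, limma adjusted p = 0.057). For TBP the difference was 0.53 ± 0.20 and for Mot1 0.58 ± 0.20, neither called (limma adjusted p = 0.106 and 0.0818). Without Null array A, the high one, both were called, at 0.76 (limma adjusted p = 0.0102) and 0.83 (limma adjusted p = 0.00805), and Mot1 was also called without Mot1 array B (0.70, limma adjusted p = 0.049). The Mot1 count against Null was then 5 without Null array A, with 296 of all 6392 regions called, against 445 in the main fit. The other 2 calls were of Mot1 at GPH1, 0.49 ± 0.12 (limma adjusted p = 0.0182), and at GAC1 region 2, 1.02 ± 0.24 (limma adjusted p = 0.01). The GPH1 call was lost without Mot1 array D (limma adjusted p = 0.0798), Null array A (0.0523) or Null array B (0.0543). The Bdf1 count of 3 was 1 without Bdf1 array C, where 245 of all regions were called, against 557 in the main fit. The TBP count of 2 was 1 without Null array B, TBP array A or TBP array B. Over all regions TBP minus Null calls were then 324, 234 and 251, against 445 in the main fit.

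With both noisier Null arrays left out, which was tried after the data were seen, 6 of these 11 calls were lost. They were Spt3 at GLC3 (limma adjusted p = 0.128), Mot1 at GPH1 (0.25) and GAC1 region 2 (0.0892), Bdf1 at GSY2 (0.0736) and GDB1 (0.0954), and TBP at GDB1 (0.133). The calls of TBP, TAF1, Mot1 and Bdf1 at GLC3 and of TAF1 at GDB1 held. These 5 were also called with any single array of the factor or of Null left out. Some differences not called passed once 1 array was left out. Without Null array A these were Mot1 at GDB1 (0.49, limma adjusted p = 0.0497) and at GIP2 (0.38, limma adjusted p = 0.0285), and the GDB1 value also passed without Mot1 array A (0.51, limma adjusted p = 0.0235). Without Null array C, TAF1 and Bdf1 passed at GLG2 (0.39 and 0.38, limma adjusted p = 0.0404 and 0.0474), where Null itself was then called at -0.29 (limma adjusted p = 0.0461). Without TAF1 array B, TAF1 passed at GAC1 region 1 (-0.44, limma adjusted p = 0.0452).

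**Figure D4:**
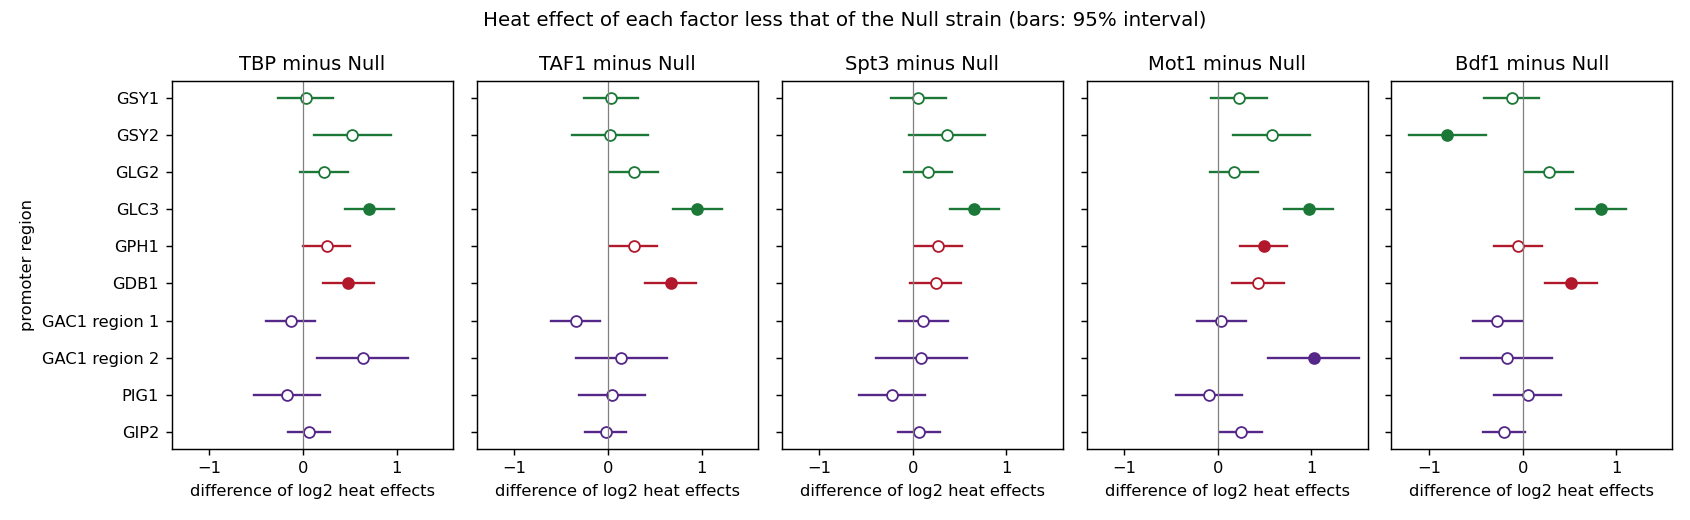
Heat effect of each factor less that of the Null strain at the 10 tested regions (x axis, difference of log2 values, with 95% intervals; filled points are called). GLC3 is the row with filled points in all 5 panels, GDB1 has 3, and the Bdf1 value of GSY2 is the filled point below 0.

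The SAGA subunit Spt3 and the TFIID subunit TAF1 were compared directly. Of the 10 regions Spt3 exceeded TAF1 at 1 and was below it at 0 (4.05% called over all regions, 2.07% higher). That region was GAC1 region 1, where Spt3 was at 0.08, 0.14, 0.15 and 0.22 and TAF1 was below 0 on all 4 arrays. The difference of 0.46 ± 0.13 was near the threshold (limma adjusted p = 0.042) and was lost with 6 of the 8 arrays left out in turn, namely each Spt3 array and TAF1 arrays A and C (limma adjusted p = 0.0552 to 0.177).

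The signs at the 2 promoters with the largest called TBP gains pointed in different directions, though neither difference was called. At GSY2 Spt3 less TAF1 was 0.34 ± 0.20 (limma adjusted p = 0.385). At GDB1 it was -0.43 ± 0.13 (limma adjusted p = 0.0655), and it was called without Spt3 array B (-0.57, limma adjusted p = 0.0123) or TAF1 array D (-0.51, limma adjusted p = 0.0331). Spt3 array B was among the noisier arrays and was the highest Spt3 array at GDB1, GSY2 and GLC3.

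Across these listed genes, the size of the RNA change and the TBP change did not share an order. Over 2566 regions with 1 promoter, the TBP and RNA changes had a Spearman correlation of 0.43, in the reading of direction used here. The 4 genes with the largest RNA rises, GPH1, GDB1, GSY2 and GIP2, had TBP values of 0.02, 0.34, 0.57 and 0.01. GLC3, with a smaller RNA rise than GIP2, had a called TBP gain, and GSY1, GLG2 and PIG1, with called RNA rises under 1, had TBP values of 0.02, 0.04 and 0.02. By role, the median TBP change was 0.18 at the 2 breakdown regions, 0.16 at the 4 tested synthesis regions and 0.02 at the 4 regulator regions, against -0.02 over all regions. With TAF1 the matching medians were 0.28, 0.08 and -0.04, and with Spt3 they were 0.07, 0.14 and -0.01. Mot1 gave 0.27, 0.38 and 0.14, and Bdf1 gave 0.04, -0.02 and -0.25. The breakdown median was thus the higher for TBP, TAF1 and Bdf1 and the synthesis median for Spt3 and Mot1, and none of these differences was tested.

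**Figure D5:**
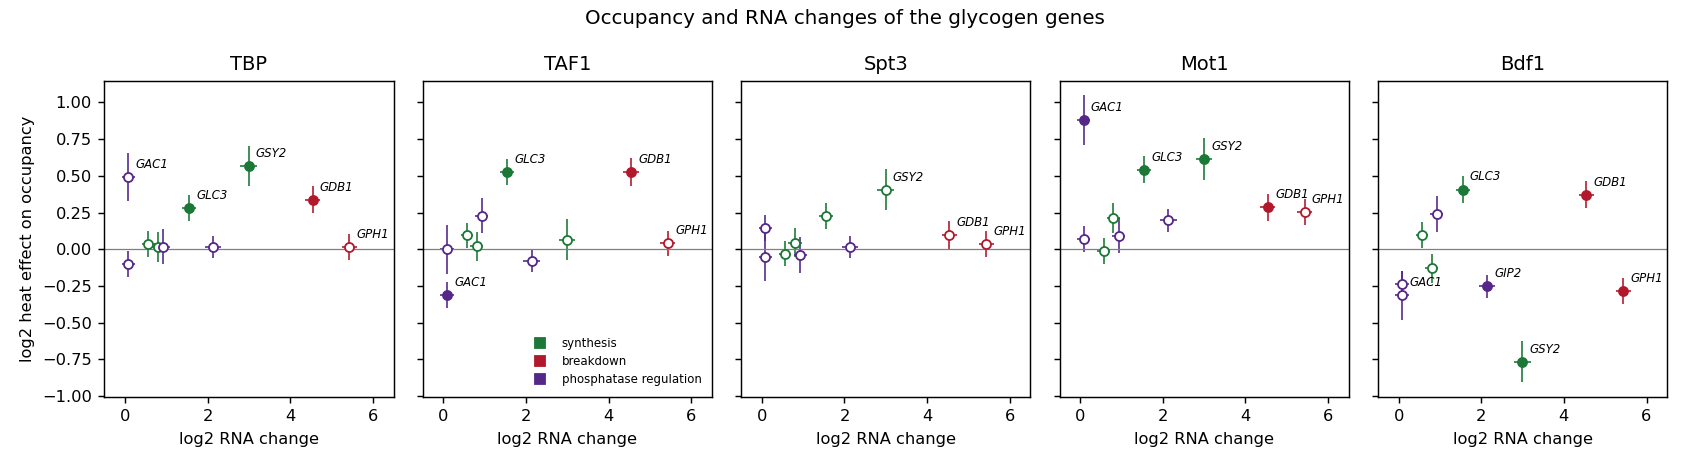
RNA change of each gene (x axis, log2) against the heat effect on each factor at its promoter (y axis, log2), with standard errors, coloured by role and filled where the factor's value was called. GAC1 appears as 2 points for its 2 regions; GPH1, farthest to the right, lies near 0 for TBP, TAF1 and Spt3.

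The regions of the further pathway genes, 21 tested, gave TBP higher at 6 and lower at 0 (8.35% of all regions were called higher), TAF1 higher at 7 and lower at 1 (12.2% and 8.67%), Spt3 higher at 2 (3.88%), Mot1 higher at 3 (8.57%) and Bdf1 higher at 7 and lower at 0 (8.42% higher). Of these 21 regions 12 belong to kinase genes, with 6 higher for TAF1 and 6 for Bdf1, and no difference between the kinase genes and the others was tested. PSK1, for a kinase that phosphorylates Ugp1 and glycogen synthase, had the largest change, with Bdf1 at 1.06 ± 0.12 (limma adjusted p = 6.27e-06) and TAF1 at 1.02 ± 0.12 (9.96e-06). Its region is shared with the divergent gene LDS1. PGM2, with an RNA rise near that of GDB1, had Mot1 at 0.55 ± 0.15 (limma adjusted p = 0.0163), TBP at 0.39 ± 0.15 (limma adjusted p = 0.0889) and Bdf1 at -0.16 ± 0.15. UGP1 had a TAF1 fall, at -0.24 ± 0.07 (limma adjusted p = 0.0223), and PGM1 had no call.

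Over the 24 heat shock arrays of the 5 factors and Null, the regions that varied most alike were GLC3 with GDB1 (Pearson r = 0.78) and GSY2 with GIP2 (r = 0.76). These are descriptions, since all regions share the arrays and their noise. Outside the 10 regions, the 5 whose values followed the median of the 10 most closely were those bordering IDH1 and NCE103 (r = 0.89), COX5B (0.88), CWP1 (0.86), and HNT1 and YDL124W (0.85), and a region with no gene name here (0.85). TBP was at 0.67, 0.46, 0.24, 0.75 and 1.22 in these 5, and Mot1 at 0.78, 0.79, 0.40, 0.83 and 0.89. These 5 were picked as the highest of all regions outside the 10, so their r is not set against that of the members, which ran from -0.21 for PIG1 and 0.05 for GLG2 to 0.74 for GPH1 and 0.76 for GAC1 region 2.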

How the data were processed

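RNA and ChIP were measured on 2-colour arrays, and each deposited value was taken as a log2 ratio between the channels, from its range. Images were taken with a GenePix 4000A scanner and read with GenePix Pro 4.0, per the labels. The authors' background correction, normalization, spot filter and the numerator channel are not stated in the labels or files, so centring, direction and the level of a spot over background stay unknown and the number of arrays limits the precision.

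Arrays were turned to heat shocked over mock treated, RNA as channel 2 over channel 1 and ChIP as channel 1 over channel 2, both likely directions, and centred on their medians. limma 3.58.1 in R 4.3.3 fitted all 28 ChIP arrays with a heat coefficient per group and a shared channel effect per region (input as TAF1 over Spt3 strain), for 6392 regions with at least 3 arrays of each of 7 groups. The 4 RNA arrays were fitted with heat and channel coefficients for 6772 probes on both heat arrays and at least 1 mock array. Differences between groups were contrasts of the same fit, and all tests were two-sided with Benjamini-Hochberg adjustment over all features. The fits were tested on simulated data.

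Probes were named by the platform annotation, and RefSeq R64 gave names and neighbours only, so no coordinates or sequences are printed. Regions were placed to the right of the gene that names them, which was decided with the values in view. The genes and lists were chosen with earlier results of these data known. All 10 genes are named by role. Of the further pathway genes the 3 precursor genes, the largest called rise and the largest called fall are named, and 5 regions of like pattern by their correlation with the per-array median. Alternatives were centring, scaling, the channel effect, filters, array weights, the replicate letter, single arrays of the groups compared left out and the placing of regions. A sign change of a value called in neither fit was not counted as a reversal.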

Additional observations from a re-analysis of the deposited data

Results flagged for a closer look

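In each of 60 sets of 4 arrays (10 regions by 6 groups) the outermost array was compared with the rest, and 2 sets had an array far from the others, where chance gives about 1 in 20. At GLC3, Spt3 array B stood above the other three, and the gap was 0.9399 of the whole range. At GAC1 region 1, TBP array A stood above the other three, with a gap of 0.8402 of the range. Neither set was called.

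The heat effects of 2 groups differed by the test of the difference at 12 places. GLC3 was higher than Null for TBP (0.71), TAF1 (0.95), Spt3 (0.66), Mot1 (0.97) and Bdf1 (0.84). GDB1 was higher than Null for TBP (0.48), TAF1 (0.67) and Bdf1 (0.52). Mot1 was higher than Null at GPH1 (0.49) and GAC1 region 2 (1.02), and Bdf1 was lower than Null at GSY2 (-0.80). Spt3 was higher than TAF1 at GAC1 region 1 (0.46).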

How the results depend on the processing

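Of 15 called factor values at the 10 regions, 6 held under every alternative fit besides that on arrays not centred (TAF1 at GLC3 and GDB1, Mot1 at GLC3 and GAC1 region 2, Bdf1 at GSY2 and GLC3), as did 5 of 11 differences from Null, and the RNA calls of GSY2, GLC3, GPH1, GDB1 and GIP2 held under all. These counts leave out the placing of regions. For ChIP values only arrays of the groups compared were left out in turn, not the other arrays of the shared fit. The regions named by GSY2, GLC3, GPH1 and GDB1 themselves are other regions, which border the 3′ ends of these genes in this placing. There TAF1 at GDB1 (0.35) and Bdf1 at GSY2 (-0.96) were also called, and TAF1 at GLC3 (0.01) was not. The sign turned for Mot1 (-0.03) and Bdf1 (-0.46, called) at GLC3, TBP at GSY2 (-0.20) and Mot1 at GDB1 (-0.01). It also turned at GPH1 for TBP, TAF1 and Mot1 (-0.28, -0.26 and -0.26, all called), where none had been called. Of the differences from Null, TAF1 at GDB1 (0.29) was not called there, Mot1 at GPH1 turned (-0.25), and at GLC3 all 5 turned (TBP -0.45, TAF1 -0.50, Spt3 -0.66, Mot1 -0.54, Bdf1 -0.96). Without centring the median of all regions moved to -1.16 for Mot1, -0.91 for Null and -0.20 to 0.18 for the other factors. Of the 10 regions, 0 were called for TBP, TAF1 and Bdf1, 7 for Mot1, 10 for Null and 8 for TBP minus Null. The count was 0 for the other differences from Null, for Spt3 minus TAF1 and for Mot1 minus Bdf1. Over all 6392 regions 5715 were called for Mot1, 5569 for Null, 3654 for TBP minus Null and 0 for TBP, TAF1 and Bdf1. Mot1 then reversed at GSY1 (-0.94), GSY2 (-0.54), GLC3 (-0.62), GPH1 (-0.91), GDB1 (-0.87), GAC1 regions 1 and 2 (-1.09 and -0.28), PIG1 (-1.07) and GIP2 (-0.96), Null at GSY2 (-0.87), GAC1 region 1 (-0.87) and PIG1 (-0.72), and Mot1 minus Bdf1 at GPH1 (-0.43) and GIP2 (-0.52). With equal spread the counts were 5 for RNA, 3 for Bdf1, 1 for Null and 5 for Mot1 minus Null. Over all 6772 probes or 6392 regions these calls were 694, 781, 61 and 335. The gap between breakdown and synthesis RNA was then 2.65. With array weights the counts were 1 for Spt3 and 2 for Spt3 minus TAF1. Minus Null they were 4 for TBP, 2 for Spt3 and 5 for Mot1. Over all regions these calls were 1003 for Spt3, 651 for Spt3 minus TAF1 and, minus Null, 1136, 237 and 411. Arrays of different groups with the same replicate letter had a median correlation of deviations of -0.03 (-0.30 to 0.27 over 55 pairs). For other letters it was 0.01 (-0.41 to 0.34 over 185 pairs). These pairs share arrays, so this does not settle whether the letters pair the arrays. With the letter as a block the counts were 5 for RNA, 3 for Bdf1, 0 for Spt3 minus TAF1 and 2 for Mot1 minus Bdf1. Over all probes or regions these calls were 1271, 809, 140 and 282. The Mot1 minus Bdf1 calls at GPH1 and GIP2 were lost (limma adjusted p = 0.0668 and 0.0922), and TBP at GAC1 region 2 was called (limma adjusted p = 0.0406). By regions named by the gene itself the counts were 2 for Mot1 and, minus Null, 0 for TBP, TAF1 and Spt3 and 1 for Mot1. The Bdf1 calls were then all lower, at GSY2, GLG1, GLC3, GPH1 and GIP2. Minus Null, Bdf1 was called lower at GLG1 (-0.92, limma adjusted p = 0.0449), GLC3 (-0.96, 0.00709) and GPH1 (-0.52, 0.00879). It was not called at GSY2 (-0.71, limma adjusted p = 0.0695) or GDB1 (0.29, 0.287). With a channel effect per group (added after the data were seen) they were 1 for TBP minus Null and 0 for Spt3 minus TAF1, and without Null arrays A and B 1 for Spt3, 1, 0 and 1 for TBP, Spt3 and Bdf1 minus Null and 2 for Spt3 minus TAF1. With single arrays left out the counts ran from 5 to 9 for RNA, 0 to 2 for TBP, 2 to 3 for TAF1, 2 to 5 for Mot1, 2 to 4 for Bdf1 and 0 to 2 for Null, and the Spt3 count was 0 throughout. Minus Null, with arrays of either group left out, the counts ran from 1 to 3 for TBP, 2 to 3 for TAF1 and 2 to 5 for Mot1. For Bdf1 they ran from 1 to 4, and for Spt3 the count stayed at 1. They ran from 0 to 2 for Spt3 minus TAF1 and 4 to 5 for Mot1 minus Bdf1. The cause of these changes was not tested.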
